A study of Mus musculus with 6 samples.

Results

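Type I interferon antiviral genes were followed across 6 lung metastases of MMTV-Myc mammary tumours in mice. The members were 33 named interferon-stimulated genes and their regulators, a list drawn up with earlier results of these arrays known. Their probe sets were chosen by mean signal on these arrays. A gene was taken where a probe set carried its symbol and no other, and the probe set with the highest mean signal over the 6 arrays stood for it. This gave 28 genes of 33, among 12394 genes with such a probe set. Isg15 was present through a probe set that carries several symbols and is not reported, and Oas1g, Ifi44, Ddx58 and Xaf1 had no probe set of their own in the annotation used here. All 28 were bright enough to pass the filter on dim probe sets.

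The metastases came from FVB mice in which the MMTV promoter, active in mammary epithelium, drives the Myc oncogene. Of the arrays, 3 carried the genotype Myc E2F2 KO (called KO, a knockout of E2F2) and 3 the genotype Myc E2F3 Het (called Het, E2F3 +/-). All animals share the Myc transgene, and metastases of Myc mice without an E2F change were not analysed here. Tissue was taken at endpoint and flash frozen, and no age is given. The titles of the 3 Het arrays share a number, and Het replicates 1, 2 and 3 carry the metastasis numbers 2, 1 and 3. The title of Het replicate 3 is written differently from the other 5, and another number in it lies apart from theirs; what that number stands for is not stated. The KO arrays carry 3 different numbers. If the number marks a mouse, the Het metastases are nodules of 1 animal, and genotype and animal cannot be told apart. No probe set carried the symbol E2f2 alone, so the KO label was not checked. E2f3 had signals of 91.4 to 138 on the KO arrays and 73.0 to 144 on the Het arrays, and whether its probe set lies in the altered part of the gene is not known. Epithelial and mammary markers were bright on every array (summed signal of 8 genes 57220 to 73860), though single markers varied more, and lung alveolar markers were also present (7 genes, 11280 to 58720).

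Type I interferons bind a receptor that activates the kinases Jak1 and Tyk2, and these phosphorylate STAT factors. Stat2 and Irf9 act in a complex that binds interferon-stimulated response elements in the promoters of target genes. The targets include sensors of foreign RNA, enzymes that degrade or block viral RNA, and Irf7, a factor that raises further interferon production. In tumours and in lung this programme is known as a response to viruses and to nucleic acids in the cytosol.

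Promoters of members are shown because these genes moved together between metastases, and letters like those of the response element were searched in them; a match is not evidence of binding. RefSeq promoter windows (build GRCm38.p6, 250 bases before to 50 after a gene's start) existed for 20 of the 28 genes; Mx1, Mx2, Oas2, Dhx58, Usp18, Parp14, Rtp4 and Zbp1 had none in the table. The letters GAAANNGAAA were searched on both strands, where N is any base and overlapping matches count separately. They were found in windows of 11 of the 20 genes, and in 3.99% of the 27025 genes with a window. The members Oas1a, Ifit1, Ifit3 and Rsad2, which have a range over 3 on the log2 scale, are printed beside Samhd1, the member with the smallest range. The sequences run 5′ to 3′ on the gene's strand over the 250 bases before the start, with matches on either strand in capitals.
Oas1a, chr5:120907526-120907775, minus strand: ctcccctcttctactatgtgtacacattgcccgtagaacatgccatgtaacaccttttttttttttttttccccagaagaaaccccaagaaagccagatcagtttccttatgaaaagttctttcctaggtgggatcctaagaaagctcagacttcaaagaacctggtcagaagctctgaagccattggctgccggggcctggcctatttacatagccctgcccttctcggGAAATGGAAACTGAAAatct
Ifit1, chr19:34640639-34640888, plus strand: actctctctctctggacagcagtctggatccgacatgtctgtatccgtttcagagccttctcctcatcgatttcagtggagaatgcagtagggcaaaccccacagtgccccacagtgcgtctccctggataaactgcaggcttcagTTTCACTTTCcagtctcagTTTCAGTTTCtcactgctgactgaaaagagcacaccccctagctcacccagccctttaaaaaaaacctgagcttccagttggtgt
Ifit3, chr19:34583279-34583528, plus strand: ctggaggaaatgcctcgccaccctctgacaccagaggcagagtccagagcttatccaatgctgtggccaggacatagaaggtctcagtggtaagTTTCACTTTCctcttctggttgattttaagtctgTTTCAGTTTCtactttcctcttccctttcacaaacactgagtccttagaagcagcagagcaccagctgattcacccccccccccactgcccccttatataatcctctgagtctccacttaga
Rsad2, chr12:26456453-26456702, minus strand: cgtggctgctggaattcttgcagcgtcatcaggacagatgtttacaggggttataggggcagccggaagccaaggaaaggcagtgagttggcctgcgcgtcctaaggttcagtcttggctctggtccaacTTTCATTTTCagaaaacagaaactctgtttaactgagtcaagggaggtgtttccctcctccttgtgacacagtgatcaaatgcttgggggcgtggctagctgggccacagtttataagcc
Samhd1, chr2:157135097-157135346, minus strand: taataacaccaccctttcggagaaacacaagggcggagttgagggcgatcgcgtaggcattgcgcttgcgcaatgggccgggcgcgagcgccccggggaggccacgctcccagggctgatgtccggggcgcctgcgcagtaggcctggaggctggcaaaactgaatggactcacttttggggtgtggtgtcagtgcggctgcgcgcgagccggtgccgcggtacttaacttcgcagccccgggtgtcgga
Oas1a had 2 overlapping matches that begin 20 and 14 bases before the start, Ifit1 had matches at 104 and 85, Ifit3 at 156 and 122, and Rsad2 had 1 at 120. Samhd1 had 0 in this window. Matches were not limited to genes of large range, being found for 5 of 9 genes with a range over 3 and for 6 of 11 with a smaller one. Irf7, Oasl1, Oasl2 and Lgals3bp, also with a range over 3, had windows without a match and are not printed.

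The members differed strongly between metastases. On the log2(signal + 16) scale, on which 1 unit is a doubling for bright genes, the median range over the 6 arrays was 3.30 for the 28 genes and 0.66 for the 13575 probe sets tested. A range above 3 was found for 16 of the 28 genes, and for 1.3% of all probe sets tested (176 in number). The members also shared the order of the arrays. Het replicate 3 was the highest array for 27 of 28 genes, against 13.7% of all probe sets. KO replicate 1 was the lowest for 19 genes (21.8% of all probe sets) and Het replicate 2 for 8 (17.7%). These arrays were together the lowest pair for 25 of 28 genes, against 8.4% of all probe sets; the pair was named after the values were seen. In bulk tissue, fewer cells of a type and less RNA per cell cannot be told apart.

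**Figure D1:**
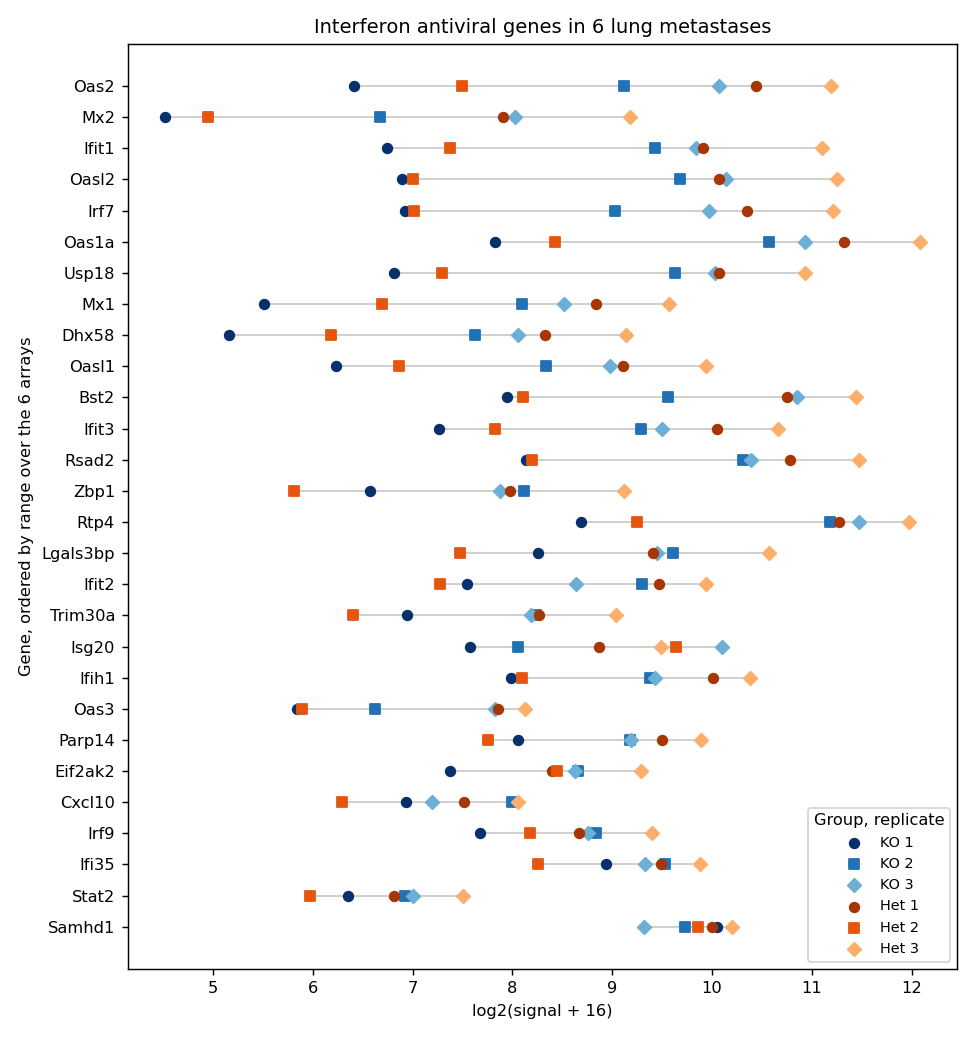
Signal of each of the 28 genes on the 6 arrays, as log2(signal + 16) on the horizontal axis, with genes ordered by their range (grey line). Blue symbols are KO and orange symbols Het metastases; KO replicate 1 and Het replicate 2 lie at the left and Het replicate 3 at the right for most genes, and Samhd1 and Isg20 depart from this order.

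Set against each gene's own mean over the 6 arrays, the median member lay at -1.56 in KO replicate 1 and -1.39 in Het replicate 2. It lay at 0.24 in KO replicate 2, 0.57 in KO replicate 3, 0.81 in Het replicate 1 and 1.49 in Het replicate 3. A low and a high metastasis thus stood in each group. The median over all probe sets tested stayed between -0.02 and 0.02 on every array. Het replicates 2 and 3 share a title number, yet their median difference over the 28 genes was 2.85, or 7.22-fold, with Het replicate 3 higher in 27 genes. A difference of at least 1 between these arrays was found for 25 of 28 genes and for 2.36% of all probe sets. KO replicate 1 was below KO replicate 3 in 27 genes (median difference 2.24) and below KO replicate 2 in 27 (1.68). Across the groups the low arrays KO replicate 1 and Het replicate 2 differed by a signed median of 0.14, in which opposite differences cancel. Regardless of sign, their median difference was 0.56, against 0.30 over all probe sets. Het replicate 2 minus KO replicate 1 ran from -0.79 to 2.06 over the genes, and 5 of 28 differed by at least 1 (8.39% of all probe sets). KO replicate 3 and Het replicate 1 differed by a signed median of 0.11, and by 0.22 regardless of sign (0.26 over all probe sets).

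**Figure D2:**
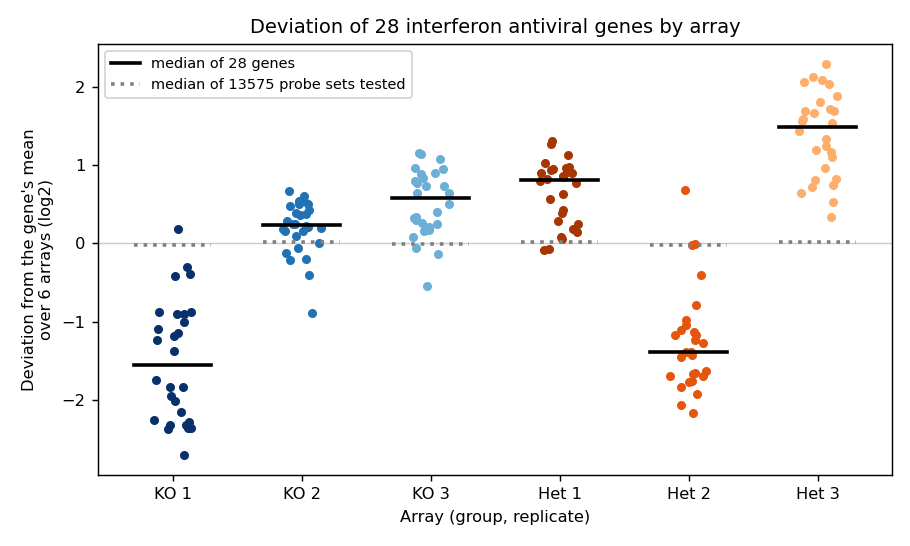
Deviation of each of the 28 genes from its own mean over the 6 arrays (log2, vertical axis) on each array; points are genes, black bars their median and dotted grey bars the median of all probe sets tested. The medians are -1.56, 0.24 and 0.57 in KO replicates 1 to 3 and 0.81, -1.39 and 1.49 in Het replicates 1 to 3.

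Among the regulators, Irf7 varied far more than the other factors. Irf7, itself induced by interferon, had signals of 106, 507 and 985 in KO replicates 1 to 3 and 1292, 114 and 2355 in Het replicates 1 to 3, a range of 4.29. It was low in KO replicate 1 and Het replicate 2 and high in Het replicate 3, and the groups overlapped. Irf9, the DNA-binding subunit of the interferon-activated complex, had signals of 189, 442 and 416 in KO and 392, 274 and 657 in Het replicates (range 1.71). Stat2, its STAT partner, was dim and had 65.7, 106 and 113 in KO and 96.6, 46.8 and 166 in Het replicates (range 1.53). Both kept Het replicate 3 as the highest array, and their ranges were under 2. A dimmer Stat2 probe set was highest in Het replicate 1.

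Of the 4 sensors measured, 3 had KO replicate 1 and Het replicate 2 as the lowest pair, and all were highest in Het replicate 3. Dhx58, an RNA helicase of the RIG-I family also called LGP2, had signals of 19.9, 182 and 251 in KO and 304, 56.5 and 547 in Het replicates (range 3.97). Its lowest value, in KO replicate 1, is dim, and without detection calls whether it lies above background is not known. Ifih1, the double-stranded RNA sensor MDA5, ran from 237 in KO replicate 1 to 1314 in Het replicate 3. Zbp1, a sensor of Z-form nucleic acids, ran from 40.3 in Het replicate 2 to 540.3 in Het replicate 3. Eif2ak2, the RNA-activated kinase PKR, had a smaller range of 1.92. On its dimmer probe set Het replicate 1 was lowest, at 131, so the probe sets of Eif2ak2 disagree on which array is lowest.

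The OAS family, which makes the 2-5A messenger that activates RNase L, and its relatives held the widest range. Oas2 had signals of 69.5, 542 and 1063 in KO replicates 1 to 3 and 1372, 164 and 2324 in Het replicates 1 to 3, a range of 4.77 and the largest of the members. Oas1a had 211, 1502 and 1941 in KO and 2546, 328 and 4318 in Het replicates (range 4.25). Oas1a belongs to a cluster of closely related copies, and how far its probe set also reads those was not tested. Oasl1, which lacks synthetase activity, had 59.3, 308 and 487 in KO and 536, 100.3 and 967 in Het replicates (range 3.71), and Oasl2 had 103, 806 and 1109 in KO and 1059, 112 and 2429 in Het replicates (range 4.36). Each of the 4 was lowest in KO replicate 1, next lowest in Het replicate 2 and highest in Het replicate 3. Oas3 was dimmer, from 41.5 in KO replicate 1 to 264 in Het replicate 3.

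Effectors that act on viral RNA or particles behaved alike. Mx2, a dynamin-like GTPase, had signals of 7.02, 86.5 and 245 in KO replicates 1 to 3 and 224, 15.01 and 562 in Het replicates 1 to 3. Its range of 4.65 is limited below by the pseudocount, since the lowest signals are dim. Mx1, the related GTPase, had 29.6, 258 and 350.3 in KO and 442, 87.7 and 743 in Het replicates (range 4.06). Ifit1, which binds viral RNA lacking host cap methylation, had 90.9, 672 and 901 in KO and 948, 150.0 and 2183 in Het replicates (range 4.36), and Ifit3, its partner, had 138, 609 and 707 in KO and 1045, 211 and 1601 in Het replicates (range 3.39). For these 4 genes KO replicate 1 was lowest, and Het replicates 2 and 3 were the second lowest and the highest arrays. Ifit2 differed in that Het replicate 2, at 139, was lower than KO replicate 1, at 172.

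Bst2, or tetherin, which holds budding virus at the cell surface, had signals of 229.9, 738 and 1828 in KO and 1712, 259 and 2778 in Het replicates (range 3.51). Rsad2, or viperin, an enzyme that makes a chain-terminating nucleotide, ran from 267 in KO replicate 1 to 2823 in Het replicate 3, and its other 2 probe sets were also highest in Het replicate 3. Usp18, which removes the ubiquitin-like protein ISG15 from targets and dampens receptor signalling, had 96.6, 779 and 1027 in KO and 1060, 142 and 1940 in Het replicates (range 4.12). These 3 genes kept KO replicate 1 and Het replicate 2 as the lowest pair. Rtp4, a chaperone of membrane receptors, Trim30a, of the tripartite motif family, and Parp14, an ADP-ribosyltransferase, kept it too, with ranges of 3.29, 2.64 and 2.14. Ifi35 varied less, with 476, 722 and 626 in KO and 704, 291 and 928 in Het replicates (range 1.62).

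Secreted members had a lower floor in Het replicate 2 than in KO replicate 1. Lgals3bp, a secreted glycoprotein, ran from 162 in Het replicate 2 to 1505 in Het replicate 3. Cxcl10, a chemokine that attracts T cells, ran from 62.4 in Het replicate 2 to 249 in Het replicate 3, with KO replicate 2 close to the top at 239.7.

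Isg20 and Samhd1 departed most from the shared order. Isg20, an RNA exonuclease, had signals of 175, 251 and 1081 in KO replicates 1 to 3 and 451, 780.5 and 700.5 in Het replicates 1 to 3. It was the 1 member whose highest array was not Het replicate 3, and Het replicate 2 was above Het replicate 3. Samhd1, which hydrolyses deoxynucleotides, had signals of 1043, 836 and 624 in KO replicates 1 to 3 and 1011, 912 and 1164 in Het replicates 1 to 3, the smallest range of the members (0.88). KO replicate 1, lowest for most members, was the second highest array for Samhd1. Of its 3 dimmer probe sets, 2 were highest in Het replicate 3 and 1 in Het replicate 1. On 2 of the 3 the groups did not overlap, with KO lower. Over all probe sets, 16.8% had no overlap, counted in either direction. Of the 2 for Samhd1, 1 ran from 42.4 to 63.7 in KO and from 106.5 to 131 in Het metastases. The other ran from 137 to 212.5 in KO and from 221 to 338 in Het metastases. The probe sets of Samhd1 thus disagree on overlap, since on the chosen one the groups overlapped. Of the 12 dimmer probe sets of all members, 9 were highest in Het replicate 3 and 7 had KO replicate 1 and Het replicate 2 as the lowest pair.

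The contrast of KO with Het asks how metastases of the E2F2 knockout differ from those of E2F3 heterozygous mice. No member passed it. The mean of the Het arrays stood as 1 sample against 3 KO samples, and its spread was assumed to equal that of a KO sample. On simulated data this test called none of the changes of 1 or 2 on the log2 scale, so a count of 0 says little about differences of the size seen in the members. At the limma threshold of 0.05 for adjusted p, 0 of 28 members and 0% of the 13575 probe sets were called (lowest adjusted p = 0.9999). At an unadjusted p under 0.05 there were 0 members and 305 probe sets. With each array as a sample, 0 members passed by limma at either level (lowest adjusted p = 0.625). Of the 28 genes, 26 had a lower mean in KO, and the median log2 difference of KO minus Het was -0.54, against -0.02 over all probe sets, of which 52.3% were lower in KO. The range within each group exceeded the difference for 28 of 28 genes, which was also usual on these arrays: it held in 74.3% of all probe sets for the Het range and 81.5% for the KO range. The median range was 2.85 over the Het arrays and 2.24 over the KO arrays, against 0.35 and 0.43 over all probe sets. On the probe set chosen for each gene, groups did not overlap for 0 of 28 members, against 16.8% of all probe sets, counted in either direction.

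Oas2 had the largest difference, -1.17 on the log2 scale with an SE of 1.35 (adjusted p = 0.9999 by limma); KO metastases averaged 558 ± 497 and Het metastases 1287 ± 1082 in signal (SD over 3 arrays). For Irf7 the mean signals were 533 ± 440.2 and 1253 ± 1121, and KO minus Het was -0.89 (SE 1.12). Cxcl10 was at 159 ± 70.9 and 159.7 ± 93.8, a difference of 0.09 (SE 0.48). Single arrays set the median. It was 0.09 without KO replicate 1, with 18 genes higher in KO, and 0.01 without Het replicate 3, with 14 higher and 14 lower. Without Het replicate 2 it was -1.24, and all 28 genes were lower in KO. The groups no longer overlapped for 15 genes, against 27.6% of all probe sets, counted in either direction. Irf7, Oas2, Oas1a, Ifit1 and Mx1 were among the 15. The median was -0.99 without KO replicate 3, where 1 gene, Isg20, had no overlap (36.7% of all probe sets), and -0.77 without KO replicate 2. It was -0.32 without Het replicate 1, the array with the highest 3' to 5' signal ratios (2.37 for actin against 1.48 to 1.73 elsewhere, and 11.8 for the transferrin receptor against 3.25 to 5.15). Leaving out KO replicate 1 left 1 gene, Samhd1, without overlap (26.9% of all probe sets). With KO replicate 1 and Het replicate 2 both left out, the median was -0.75. Then 16 genes had no overlap, against 40.3% of all probe sets, counted in either direction.

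**Figure D3:**
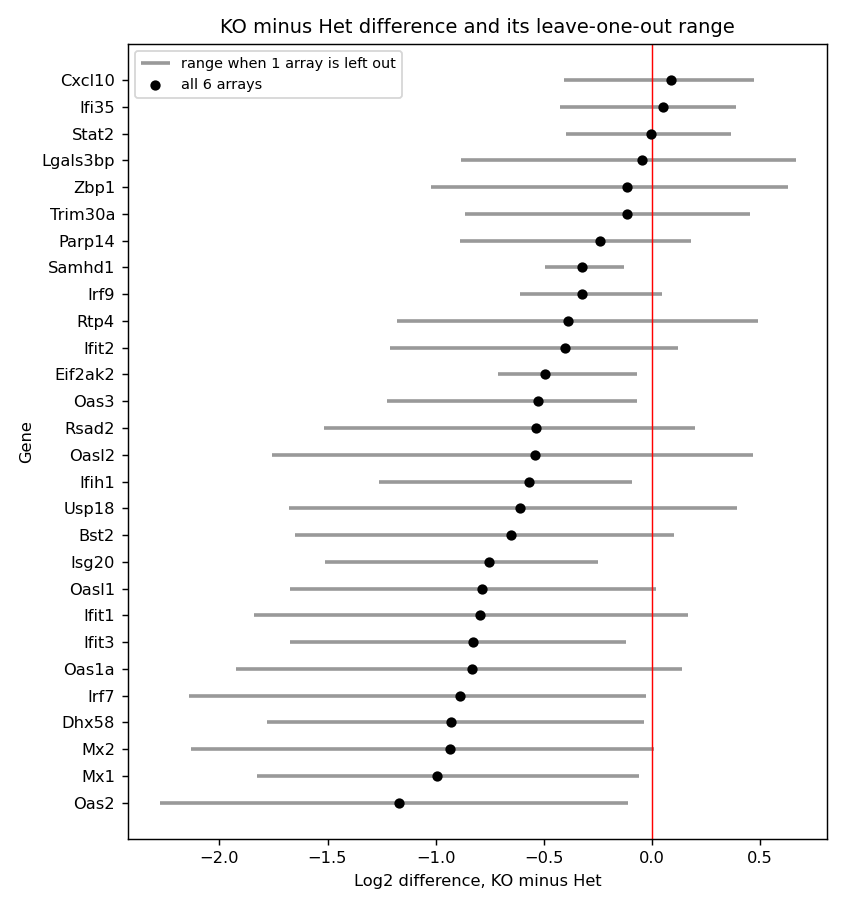
Log2 difference of KO minus Het for each of the 28 genes (horizontal axis), with all 6 arrays (black points) and as the range obtained when each array is left out in turn (grey bars). The points lie between -1.17 for Oas2 and 0.09 for Cxcl10, and the bars of 18 genes cross 0.

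Interferon genes were dim, and receptors and factors outside the members had a median range near that of all probe sets; Irf7, Stat2 and Irf9, counted among the members, varied more. Of 19 interferon genes listed, 10 were measured and 0 passed the filter on dim probe sets; Ifnb1, the interferon beta gene, had signals of 20.9, 25.4 and 34.9 in KO and 58.6, 31.5 and 73.6 in Het replicates 1 to 3. Ifnb1 was thus highest in Het replicate 3, but at a level where background is not known. Of 16 receptors, kinases and STAT and IRF factors, 14 were measured, with a median range of 0.64. The receptor chain Ifnar1 ran from 191 to 271 and Ifnar2 from 462 to 539. For 0 of these 14 genes were KO replicate 1 and Het replicate 2 the lowest pair. The 16 sensors and adaptors measured had a median range of 0.81, and 2 had this pair lowest, Trim25 and the RNA-editing enzyme Adar, which ran from 115 in Het replicate 2 to 416 in Het replicate 3. The RNA sensor Tlr3 had 317, 347 and 448 in KO and 611, 513.5 and 714 in Het replicates 1 to 3. Its groups did not overlap, and KO minus Het was -0.70 (SE 0.28, adjusted p = 0.9999 by limma). Groups did not overlap for 3 of the 16 sensors and adaptors and for 3 of the 14 receptors, kinases and factors, against 16.8% of all probe sets. Of 13 feedback inhibitors, 1 had the pair lowest (Ptpn6), and the median range was 0.69. Of the 53 genes measured on these lists, 35 entered limma, and 0 of the 35 had an adjusted p under 0.05 in either direction or an unadjusted p under 0.05; the other 18, all the interferon genes among them, were too dim to be tested.

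Other interferon-stimulated genes shared the order of arrays in part, but not the direction of the group difference. Of 45 measured outside the members, 28 had KO replicate 1 and Het replicate 2 as the lowest pair and 25 were highest in Het replicate 3; 24 of the 45 had a lower mean in KO, with a median difference of -0.04. Of the 35 tested, 0 passed limma in either direction and 2 had an unadjusted p under 0.05, both with a higher mean in KO. Psmb8, a subunit of the immunoproteasome, differed by 1.02 (SE 0.24). Ifitm3, a membrane protein that restricts viral entry, differed by 0.46 (SE 0.16), each with adjusted p = 0.9999 by limma. These SEs hold no spread between the Het arrays, which were averaged. Psmb8 had 1279, 1604 and 1305 in KO and 837, 279 and 1301 in Het replicates 1 to 3. Ifitm3 had 10260, 9044 and 8539 in KO and 8055, 3504 and 10720 in Het replicates. For both genes the groups overlapped and Het replicate 2 was the lowest array. Cmpk2, a mitochondrial nucleotide kinase, had 72.9, 434 and 477 in KO and 596, 75.5 and 1073 in Het replicates 1 to 3. Ms4a4c and Ddx60 had the same lowest pair and the same highest array, with ranges of 3.35 and 3.29. Ifitm1 went another way, with 2618, 529 and 352 in KO and 369, 199.8 and 193 in Het replicates. Interferon gamma genes, which respond to the type II interferon, had a median of -0.58 in KO replicate 1, -1.55 in Het replicate 2 and 1.02 in Het replicate 3, and 9 of 13 had the same lowest pair. Of these 13, 3 had a lower mean in KO, and the median difference was 0.13. Het replicate 2 was the lowest array for 11 of the 13 and for 29 of the 45 other interferon-stimulated genes, and KO replicate 1 for 0 and 10 of them; whether these counts differ from the 8 and 19 of 28 antiviral genes was not tested. Gbp3, the interferon gamma gene with the widest range (3.94), had 142, 572 and 738 in KO and 1072, 114.5 and 1994 in Het replicates 1 to 3. Iigp1 (range 3.16) shared its lowest pair and its highest array. Cxcl9 went another way, being highest in KO replicate 2 (221) and lowest in Het replicate 2 (3.19, a dim value).

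Most markers of other cell types did not share this order of arrays. T cell markers (7 of 9 measured, 0 past the dim filter) summed to 80.9 to 319 in KO and 108 to 136 in Het metastases. NK and cytotoxic markers (6 of 8, 0 past the filter) summed to 130.2 to 235 and 134 to 224. Plasmacytoid dendritic cell markers (6 of 8), of a cell known for its interferon output, summed to 864 to 1407 in KO and 376 to 1151 in Het metastases, and were not highest in Het replicate 3, where the sum was 538. Of these 6, 1 passed the dim filter, Ly6d, and it made up most of the sum (896, 1205 and 782 in KO and 1023, 232 and 395 in Het replicates 1 to 3), so the sum says little of the cell type. Macrophage markers (9 of 9) summed to 7308 to 15440 and 11510 to 13870, and B and plasma cell markers (4 of 6) to 234 to 3072 and 729.9 to 2129. The latter sum was mostly Jchain, the joining chain of secreted antibodies and the 1 of the 4 past the dim filter, which ran from 171 to 2979 over the KO arrays and from 689.8 to 2041 over the Het arrays. No marker signal was listed at 0. Neutrophil markers (5 of 6) were low in the same arrays as the members, with sums of 1361, 8343 and 4705 in KO and 4775, 2105 and 2769 in Het replicates. Of the 5, 3 had KO replicate 1 and Het replicate 2 lowest. Unlike the members, 5 of 5 were highest in KO replicate 2 and 0 in Het replicate 3, where their median deviation was -0.165. The part of neutrophil markers in the result was not tested. Lung alveolar markers were highest in KO replicate 1 (58720) and lowest in KO replicate 3 (11280), with Het replicates at 28230, 18400 and 20620. Epithelial and mammary markers were split in KO replicate 1. Of the 8 measured, 3 were lowest and 2 highest there, and their median deviation was 0.07. Wap, a milk protein, had 945, 3644 and 9295 in KO and 9346, 7217 and 9654 in Het replicates 1 to 3. It was lowest and highest in the same arrays as most members. Elf5, a factor of luminal cells, was lowest in KO replicate 1 (3155) and highest in Het replicate 2 (8890). Krt8 and Krt18 were instead highest in KO replicate 1, at 12110 and 15160. The part of these markers in the result was not tested. Endothelial markers (6 of 6) summed to 780.1 to 1957 in KO and 941 to 998 in Het replicates 2 and 3, with Het replicate 1 at 1319. In the 8 marker lists other than neutrophils, 0 genes had KO replicate 1 and Het replicate 2 as the lowest pair.

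**Figure D4:**
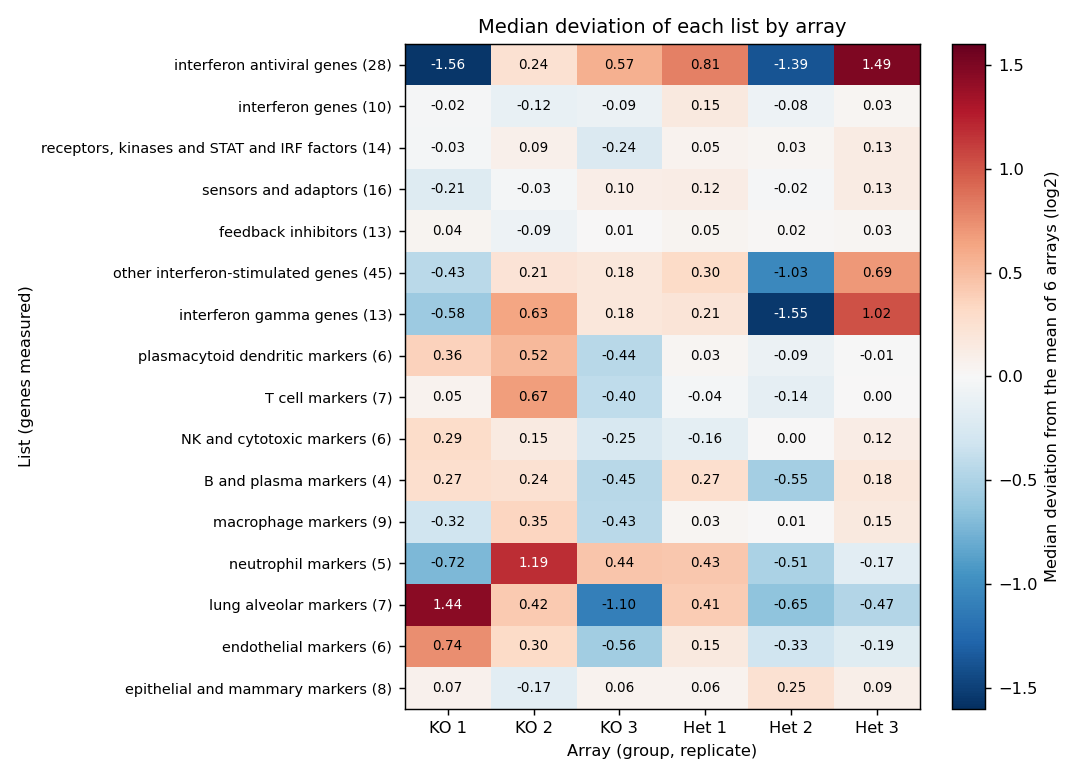
Median deviation from the mean of the 6 arrays (log2, colour and number) for each list (rows, genes measured in brackets) on each array (columns). The antiviral genes, other interferon-stimulated genes and interferon gamma genes are blue in KO replicate 1 and Het replicate 2 and red in Het replicate 3; alveolar markers are red in KO replicate 1, at 1.44.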

How the data were processed

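RNA of 6 lung metastases was hybridised to Affymetrix mouse arrays of 22690 probe sets, of which 64 are controls. The deposited values are intensities on a linear scale, made by the authors with MAS5 and Affymetrix Expression Console, per the submitters' processing notes; versions and a genome build are not given in the sources used here. The deposited intensity columns share a trimmed mean of 500.2, so arrays had been scaled to a common level, and a change shared by most probe sets would be hidden by it. Detection calls were not used here. By the platform annotation, 20380 probe sets had 1 symbol, 691 had several and 1555 had none; 20364 symbols matched a GRCm38.p6 gene table by Entrez ID and 0 were updated.

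Signals were transformed to log2(signal + 16), which understates changes of dim genes. The dimmest 40% by mean signal were dropped. The other 13575 entered limma 3.58.1 under R 4.3.3 (trended eBayes, Benjamini-Hochberg over all, threshold 0.05). On simulated data with the KO spread, the fit returned the sizes of the changes put in. With the Het arrays averaged it called none of 1 or 2 on the log2 scale and most of 4. With each array as a sample it called 42.5% of changes of 1 and 80.5% of 2. Simulated Het arrays were drawn independently, so their mean varied less than a single KO array. Changes were put into probe sets drawn from all tested, whose median KO range was 0.43 against 2.24 for the members. The shares called thus need not hold for the members. The 3 Het arrays share a title number and were averaged into 1 sample, whose spread is taken to equal that of a KO sample. Nothing says that samples came from separate animals, so p-values measure only the spread between these samples. The number of arrays limits the precision. Members and lists were chosen with earlier results of these data known, so their values are a description. The rule printed all arrays for the regulators, the 12 widest and 4 narrowest ranges and any non-overlapping member. It also named up to 4 genes of each other list, cell type markers aside, by the largest limma t or the widest range. Isg20, the members and list genes given by ranges, Ifnb1, the receptor chains, Trim25 and Ptpn6 were added after their values were seen. So were Psmb8, Ifitm3 and the single marker genes Ly6d, Jchain, Wap, Elf5, Krt8 and Krt18. SD is over 3 arrays and SE is that of limma. Alternatives covered the unit of replication, pseudocount, filter, scaling, probe set rule and left-out arrays.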

Additional observations from a re-analysis of the deposited data

How the results depend on the processing

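No probe set passed limma's threshold under any alternative run, with a count of 0 in each, which with the Het arrays averaged is a weak test; the number with an unadjusted p under 0.05 ran from 157 without KO replicate 2 to 1395 with each array as a sample. Het replicate 3 was the highest array for 27 genes with quantile normalization and with the mean over probe sets, and KO replicate 1 the lowest for 19 and 18. The median range of the 28 genes ran from 2.47 (pseudocount of 64) to 2.99 (pseudocount of 1) over the Het arrays and from 1.92 to 2.34 over the KO arrays. The median difference was -0.61 with quantile normalization and ran from -1.24 to 0.09 when 1 array was left out. The number of genes without overlap, 0 with all arrays, ran from 0 to 15 when 1 array was left out. It was 1 with the mean over all probe sets (Samhd1), and 16 without both KO replicate 1 and Het replicate 2, an alternative chosen after seeing the data.

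The sign of 18 of the 28 differences turned when some array was left out. The other 10 kept theirs in all 6 leave-outs, but most came near 0 in some leave-out. Their smallest differences lay between -0.03 for Irf7, with Dhx58 at -0.04 and Mx1 at -0.06, and -0.25 for Isg20. With 1 array left out, the log2 differences of the 18 ran from -0.40 to 0.37 for Stat2, -0.61 to 0.048 for Irf9, -1.84 to 0.17 for Ifit1, -1.21 to 0.12 for Ifit2, -2.13 to 0.009 for Mx2, -1.93 to 0.14 for Oas1a, -1.68 to 0.020 for Oasl1, -1.76 to 0.47 for Oasl2 and -1.51 to 0.20 for Rsad2. They ran from -1.68 to 0.40 for Usp18, -1.65 to 0.10 for Bst2, -0.42 to 0.39 for Ifi35, -0.89 to 0.18 for Parp14, -0.86 to 0.45 for Trim30a, -1.18 to 0.49 for Rtp4, -1.02 to 0.63 for Zbp1, -0.88 to 0.67 for Lgals3bp and -0.41 to 0.47 for Cxcl10. Stat2, at -0.002 with all arrays, was at 0.019 with a pseudocount of 1 and 0.011 with the mean over its probe sets. No paired analysis was possible because the labels give the groups no shared replicate numbers. Without detection calls, signals such as those of Mx2 and Dhx58 in KO replicate 1 and of the interferon genes cannot be told from background.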
